A study of Mus musculus with 6 samples.

Results

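The interferon regulatory factors described here are 7 genes, Irf1, Irf2, Irf3, Irf4, Irf5, Irf8 and Irf9, taken by name from a mouse single-cell table of 55538 features, and all 7 were rows of that table with UMIs in B cells, T/NK cells and macrophages. Each was followed across the cell types of the peritoneal lavage, as a level (CPM, the gene's UMIs divided by all UMIs of the class and scaled to 1000000) and as the share of cells that carry a UMI once each cell has been thinned to 1500 UMIs. A UMI is the molecular tag that lets each captured transcript be counted once.

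Peritoneal lavage cells of C57BL/6 mice (C57BL/6J in the study's methods) that adhered to the plate were sequenced as single cells by droplet 5′ profiling in 6 libraries. The libraries are WT Ctrl, WT 2hr, WT 6hr, MerKD Ctrl, MerKD 2hr and MerKD 6hr, where WT is MerTK +/+, MerKD is MerTK -/-, the times are hours with apoptotic human Jurkat cells (a T cell leukemia line killed with UV light) and Ctrl cells received a change of medium. Each condition has 1 library, with the cells of 3 mice pooled in it, and the MerKD allele is known for lacking the kinase domain of the receptor. Which of the library numbers 1 to 6 on the barcodes stands for which condition is unknown here, so no condition is compared, libraries appear by number, and no p-value is given.

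IRFs bind DNA through a conserved helix-turn-helix domain that reads GAAA repeats, the core of the interferon-stimulated response element. Irf3, Irf5 and Irf9 mainly pass on signals, Irf3 and Irf5 from pattern recognition receptors through their kinases and Irf9 from type I interferon receptors as the DNA-binding subunit of the interferon-stimulated gene factor complex. Irf1 is induced by interferon gamma through GAS elements, Irf2 opposes it at many shared sites, and Irf4 and Irf8 are hematopoietic factors that bind weakly alone and are recruited by PU.1, Spi-B or BATF. In the peritoneum, Irf4 is known for its role in monocyte-derived small macrophages, whereas Gata6 marks the resident large macrophages.

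Cells were assigned by marker UMIs. B cells (at least 4 UMIs of Cd79a and Cd79b) numbered 2948, T/NK cells (at least 2 of Cd3d, Cd3e and Nkg7) 514 and macrophages (at least 2 of Csf1r, Adgre1 and Fcer1g, with at most 2 B cell and 1 T/NK cell marker UMIs) 2773, of 7665 cells kept from 7760 barcodes. Of the macrophages, 656 had a Gata6 UMI and no Fcrls UMI (Gata6 macrophages), 148 the reverse (Fcrls macrophages), 1 had both and 1968 neither. By library, Fcrls macrophages numbered 8 to 54 cells and Gata6 macrophages 39 to 213, so single-library values of the Fcrls class rest on few cells. Both lymphocyte limits were met by 153 cells of a median of 10045 UMIs, which were left out of both classes, and 1277 cells fell in no class. All 8 B cell markers, 7 T cell markers and 8 macrophage markers listed were found in at least 10% of the B cells, T/NK cells and macrophages, but in the T/NK class only 1 of 6 NK cell markers was. The lists include the genes that set the classes (Cd79a, Cd79b, Cd3d, Cd3e, Nkg7, Csf1r, Adgre1 and Fcer1g). For these genes the outcome was largely fixed by the rule. Cells under 1500 UMIs, which thinning left out, were 38 B cells, 16 T/NK cells and 83 macrophages. Library totals were 4234786 to 10287079 UMIs, and median depth was 5416 UMIs per B cell, 2813.5 per T/NK cell and 4426 per macrophage. Barcode sequences found in more than 1 library numbered 28.

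**Figure D1:**
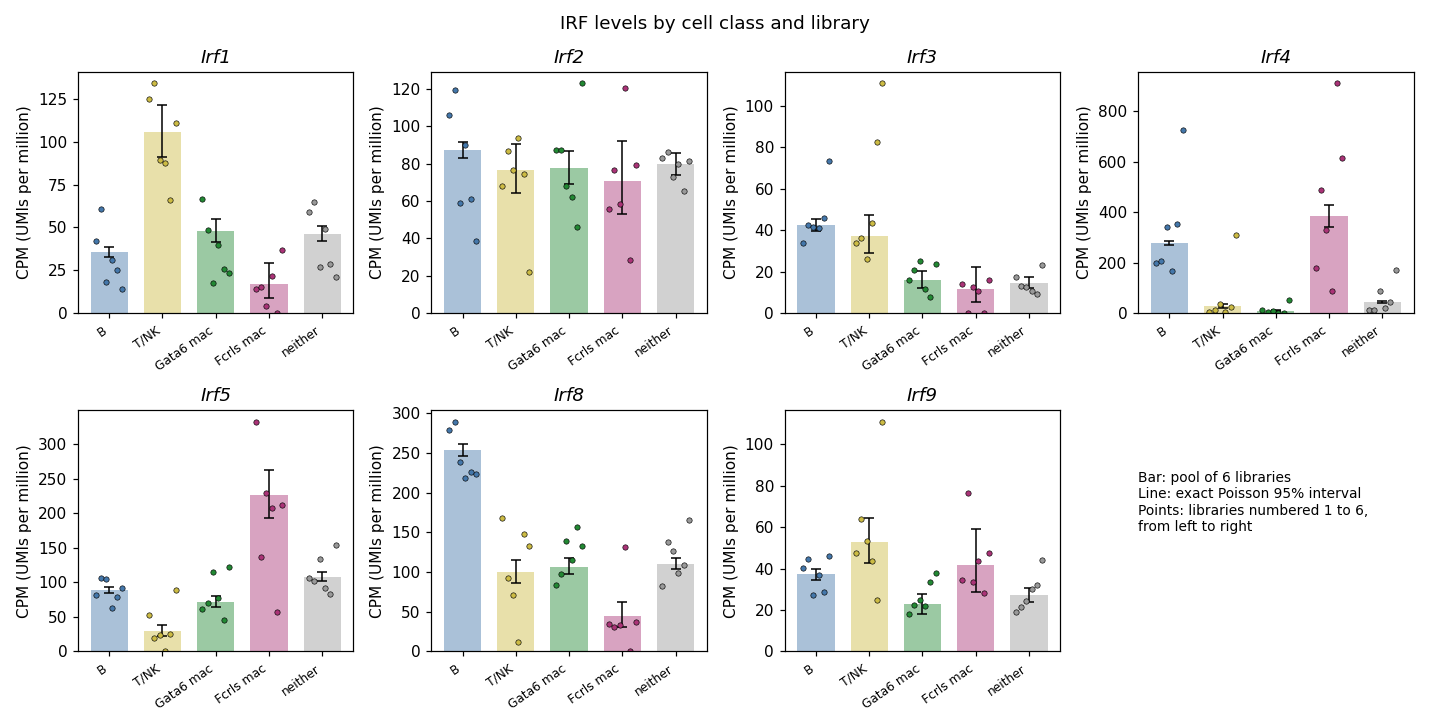
Level (CPM) of each of the 7 genes in B cells, T/NK cells, Gata6 macrophages, Fcrls macrophages and macrophages with neither marker. Bars are the pool of 6 libraries with exact Poisson 95% intervals and points are the libraries in number order. Irf4 stands at 383 CPM in Fcrls macrophages and at 10.1 CPM in Gata6 macrophages, and every B cell library of Irf8 lies above every library of the other classes.

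Irf8, which is needed for monocyte and dendritic cell development and is active in B cells, lies on chromosome 8 from 120736358 to 120756694 on the plus strand of GRCm38 and shares part of its span and strand with the predicted gene Gm20388, so its counts are uncertain by any reads divided between them. Its promoter is shown because it holds a pair of matches to the GAS (interferon gamma activated site) letters TTCNNNGAA, 171 and 153 bases before the start, and 1 match to TATAAA at 31 bases (RefSeq, GRCm38.p6, chr8:120736167-120736352, plus strand, 5′ to 3′, matches in capitals).
Irf8 promoter: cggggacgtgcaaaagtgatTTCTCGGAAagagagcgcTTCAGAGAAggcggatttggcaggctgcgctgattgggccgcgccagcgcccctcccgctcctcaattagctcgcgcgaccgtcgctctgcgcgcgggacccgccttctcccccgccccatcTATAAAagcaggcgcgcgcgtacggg
Of all 32851 promoter windows of 300 bases, 8.30% hold a GAS match and 13.6% a TATAAA match, counted on both strands. A second annotated Irf8 start had no match in its window.

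In B cells, Irf8 stood at 253 CPM (95% interval 246–261), and the libraries ran from 219 through a median of 233 to 289 CPM. Macrophages with neither marker had 111 CPM (81.9–165 by library), Gata6 macrophages 107 CPM (83.9–157), T/NK cells 100.1 CPM (12.5–168) and Fcrls macrophages 44.4 CPM (0–132). The B cell libraries lay above all libraries of every other class, while the classes that follow overlapped one another. B cells exceeded macrophages by 1.26 on the log2 scale (1.17–1.34), that is 2.39-fold, in 6 of 6 libraries (0.63 to 1.78). At equal depth (without thinning, 62.4% of B cells and 35.7% of Gata6 macrophages), 28.6% of B cells carried an Irf8 UMI (26.9–30.2%), against 13.8% of Gata6 macrophages (11.2–16.7%), 5.42% of T/NK cells (3.6–7.79%) and 4.14% of Fcrls macrophages (1.53–8.79%).

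Irf4, the lymphoid partner of PU.1 and the factor of B cell activation and plasma cell entry, lies on chromosome 13 from 30749226 to 30766976, plus strand, and overlaps no other annotated gene. Its promoter is shown because, of the letters searched, it held only TATAAA and no GAS match. In the part shown (RefSeq, GRCm38.p6, chr13:30749133-30749224, plus strand, match in capitals), TATAAA lies 26 bases before the RefSeq start, which differs from the gene start above.
Irf4 promoter: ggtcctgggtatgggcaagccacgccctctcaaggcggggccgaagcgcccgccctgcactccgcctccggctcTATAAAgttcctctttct
These are letters in 1 window and draw nothing about which factors act there.

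Fcrls macrophages had 383 CPM of Irf4 (340–429) and B cells 277 CPM (269–284). By library, Fcrls macrophages ran from 87.7 through 409 to 910 CPM and B cells from 167 through 272 to 725 CPM, so these 2 classes overlapped, and Fcrls macrophages were the higher of the pair in 2 of 6 libraries. These were libraries 2 and 5, with only 12 and 8 Fcrls macrophages. Macrophages with neither marker had 45.6 CPM (12.8–171 by library), T/NK cells 27.5 CPM (4.53–311) and Gata6 macrophages 10.1 CPM (0–52.0). Those 3 classes overlapped each other, and in each of the 6 libraries all 3 stood below the B cells of that library. Over macrophages as a whole (54.3 CPM), B cells were higher by 2.35 on the log2 scale (2.24–2.46), 5.10-fold, in 6 of 6 libraries (1.58 to 3.40). At equal depth, 31.7% of Fcrls macrophages (24.3–40.0%) and 21.7% of B cells (20.2–23.3%) carried an Irf4 UMI, against 2.01% of T/NK cells (0.97–3.66%) and 1.07% of Gata6 macrophages (0.43–2.2%). Without thinning the shares were 53.4%, 43.4%, 4.28% and 3.20% in the same order. The intervals of T/NK cells and Gata6 macrophages overlap, and as free RNA also gives UMIs, shares of this size are not read as expression. Gata6 macrophages had the higher median depth of the macrophage classes compared, 5553.5 against 4280 UMIs in Fcrls macrophages.

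Irf4 differed between libraries. In B cells the libraries numbered 6, 5 and 3 had 725, 354 and 340 CPM, and the other 3 had 167 to 205 CPM. Macrophages gave 209, 53.9 and 114 CPM in the same 3 libraries and 18.5 to 27.8 CPM in the rest, and T/NK cells gave 311, 24.7 and 36.1 CPM against 4.53 to 13.9 CPM. Thus the same 3 library numbers were the highest in these 3 classes taken whole. In T/NK cells without a B cell or macrophage marker UMI, only library 6 stood out, at 333 CPM. There, library 5 had 0 CPM and library 3 had 6.91 CPM, against 3.69 to 6.97 CPM in libraries 1, 2 and 4. Macrophages with neither marker followed, with 171, 43.4 and 86.9 CPM in libraries 6, 5 and 3 and 12.8 to 22.5 CPM in the rest. Gata6 and Fcrls macrophages did not. Gata6 macrophages had 0 CPM in library 5 and 14.2 CPM in library 1 against 10.7 CPM in library 3. Fcrls macrophages had 489 CPM in library 2 against 329 CPM in library 3. Irf8 in B cells was at 224, 226 and 239 CPM in libraries 6, 5 and 3, within the range of the rest (219 to 289 CPM). Library 6 also had the lowest median depth, 2776 UMIs per barcode, and which condition it holds is not known here. Its T/NK value rests on 14 UMIs in 5 of 18 cells. The part of depth or condition in these differences was not tested.

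Irf4 and Irf8 are recruited by the same partners, and their UMIs were also set against each other. The log2 ratio of Irf4 to Irf8 UMIs was 0.13 in B cells (-0.50 to 1.70 by library), 3.11 in Fcrls macrophages (-0.58 to 4.05 in the 5 libraries with both), -1.28 in macrophages with neither marker and -3.40 in Gata6 macrophages (-5.77 to -1.35 in the 5 libraries with both). This ratio is of UMIs, and the length or capture of the 2 transcripts was not taken into account, so only its change between classes can be read. The Gata6 and Fcrls ranges did not overlap in those libraries.

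Irf5, which Toll-like receptor signals activate in myeloid and B cells to drive inflammatory cytokine genes, spans chromosome 6 from 29526625 to 29541871, plus strand, overlapping Tnpo3 on the other strand. It was highest in Fcrls macrophages, at 226 CPM (194–262), with libraries from 56.8 through 210 to 333 CPM. The lowest of these was library 5, with 8 Fcrls macrophages. Macrophages with neither marker had 108 CPM (83.5–154 by library), B cells 88.5 CPM (62.7–106), Gata6 macrophages 72.0 CPM (46.2–123) and T/NK cells 29.7 CPM (0–88.8). Neighbours in this order overlapped by library. B cells and macrophages as a whole differed by -0.24 on the log2 scale (-0.34 to -0.13), with B cells lower in 4 of 6 libraries, and this sign turned (0.20) when immunoglobulin, mitochondrial and ribosomal protein genes were left out of the totals. At equal depth 22.8% of Fcrls macrophages (16.2–30.5%), 11.3% of B cells (10.1–12.5%), 10.1% of Gata6 macrophages (7.92–12.7%) and 1.00% of T/NK cells (0.33–2.33%) had an Irf5 UMI.

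Irf1, the activator induced by interferon gamma, lies on chromosome 11 from 53770014 to 53778374, plus strand, overlapping the predicted gene Gm17334 on the other, and its promoter held 1 GAS match 90 bases before the start, shown here because the gene is known for its response to interferon gamma (RefSeq, GRCm38.p6, chr11:53769904-53769952, plus strand, match in capitals).
Irf1 promoter: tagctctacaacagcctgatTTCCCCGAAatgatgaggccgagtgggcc
Another annotated Irf1 start had no match in its window. T/NK cells had the most Irf1, at 106 CPM (91.2–122), with libraries from 66.0 through 100.2 to 134 CPM. Gata6 macrophages had 47.8 CPM (17.9–66.4 by library), macrophages with neither marker 46.3 CPM (20.8–64.7), B cells 35.6 CPM (14.1–60.7) and Fcrls macrophages 17.0 CPM (0–37.0). Every T/NK library lay above every B cell library, and the lowest of them fell just under the highest Gata6 library. T/NK cells exceeded macrophages by 1.23 on the log2 scale (0.99–1.46) and B cells were 1.57 below T/NK cells (-1.80 to -1.33), each in 6 of 6 libraries. The shares at equal depth were 16.3% in T/NK cells (13.1–19.8%), 5.57% in B cells (4.76–6.46%), 5.37% in Gata6 macrophages and 3.45% in Fcrls macrophages.

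Irf1 was lowest in B cells in the 3 libraries in which Irf4 was highest. Libraries 6, 3 and 5 had 14.1, 18.0 and 25.4 CPM, the other 3 had 31.0 to 60.7 CPM, and macrophages gave 23.1, 21.0 and 26.9 CPM in those 3 and 45.6 to 60.3 CPM in the rest. T/NK cells did not follow, with 111, 89.5 and 66.0 CPM in the same order against 87.6 to 134 CPM.

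Irf2, the relative of Irf1 that often acts as its repressor, had pooled levels closer together across classes than the other 6 genes. It lies on chromosome 8 from 46739732 to 46847458, plus strand, with 3 predicted genes on the other strand of its span. The far end of its promoter window packs matches to the interferon-stimulated response element GAAANNGAAA (241 bases before the RefSeq start, 3.44% of all windows), the PU.1 and IRF composite GGAANNGAAA (247 bases, 2.72%), which share bases, and a GAS match at 224 bases (RefSeq, GRCm38.p6, chr8:46739495-46739549, plus strand, matches in capitals).
Irf2 promoter: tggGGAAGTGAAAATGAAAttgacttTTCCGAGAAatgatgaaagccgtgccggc
Irf2 had 87.1 CPM in B cells (82.9–91.4), 79.7 CPM in macrophages with neither marker, 77.6 CPM in Gata6 macrophages, 76.4 CPM in T/NK cells (64.3–90.2) and 70.6 CPM in Fcrls macrophages (53.0–92.1). The 5 classes overlapped by library. Log2 ratios were 0.15 for B cells over macrophages, -0.04 for T/NK cells over macrophages, 0.19 for B cells over T/NK cells and -0.14 for Fcrls over Gata6 macrophages, and the last 3 had intervals across 0. Within B cells the libraries ran from 38.3 CPM in library 6 to 119 CPM in library 2.

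Irf3, the transcription factor that Tbk1 phosphorylates downstream of nucleic acid sensors, lies on chromosome 7 from 44997648 to 45002848, plus strand, overlapping Bcl2l12 on the other strand. Both lymphocyte classes had more of it than each of the macrophage classes. B cells had 42.5 CPM (39.5–45.5), with libraries from 33.7 through 42.1 to 73.5 CPM, and T/NK cells had 37.4 CPM (26.0–111 by library). Gata6 macrophages had 15.9 CPM (7.70–25.04), macrophages with neither marker 14.6 CPM (9.15–23.4) and Fcrls macrophages 11.8 CPM (0–15.9), so no macrophage library reached the lowest lymphocyte library. The log2 ratio over macrophages was 1.52 for B cells (1.3–1.75) and 1.34 for T/NK cells (0.92–1.74), positive in 6 of 6 libraries for both. B cells and T/NK cells differed by 0.18 (-0.18 to 0.56). At equal depth the share was 6.43% in B cells (5.56–7.38%) and 2.53% in macrophages (1.97–3.19%).

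Irf9, the DNA-binding subunit of the interferon-stimulated gene factor complex, lies on chromosome 14 from 55603571 to 55610030, plus strand, and shares span and strand with Rnf31, so its counts carry the same doubt as those of Irf8. T/NK cells had 52.8 CPM (42.8–64.5), Fcrls macrophages 41.8 CPM (28.6–59.0), B cells 37.2 CPM (34.4–40.0), macrophages with neither marker 27.2 CPM (23.9–30.8) and Gata6 macrophages 22.8 CPM (18.3–27.97). By library these were 24.7 to 111, 28.4 to 76.3, 27.5 to 46.2, 18.9 to 44.3 and 18.1 to 37.8 CPM, and each overlapped the next. Its log2 ratio for T/NK cells over macrophages was 0.98 (0.64–1.31), positive in 5 of 6 libraries.

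**Figure D2:**
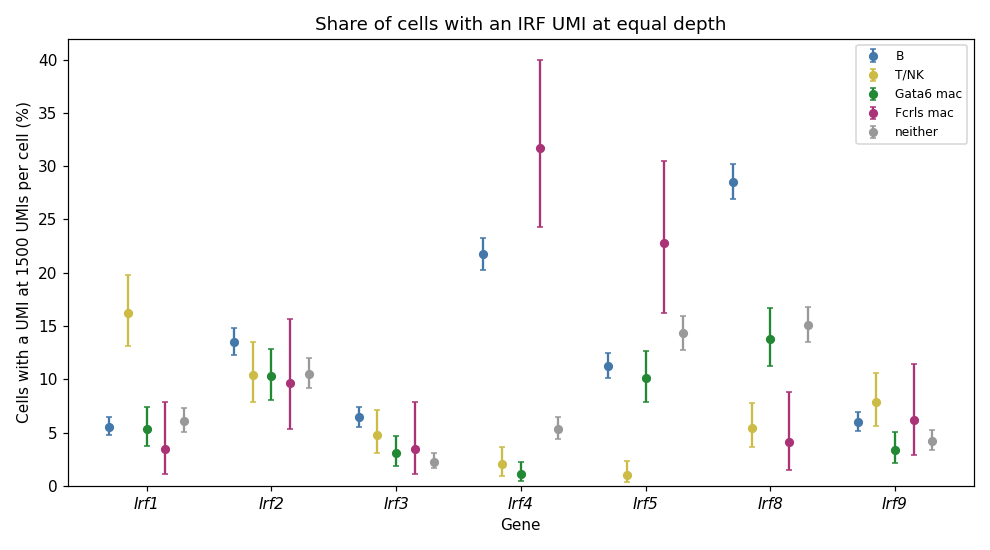
Share of cells (%) with at least 1 UMI of each gene after every cell was thinned to 1500 UMIs, for 5 cell classes. Points are the pool of 6 libraries and bars exact binomial 95% intervals, which cover counting error only. Irf4 and Irf5 are highest in Fcrls macrophages (31.7% and 22.8%), Irf8 in B cells (28.6%) and Irf1 in T/NK cells (16.3%).

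Read across the set, a gene was called where its pooled CPM differed at least 2-fold and all 6 libraries lay on the same side. For B cells over macrophages 3 of 7 genes were called, Irf3, Irf4 and Irf8, all higher in B cells, beside 40.8% of the 9394 features tested, and the median log2 ratio was 0.48 for the 7 genes and 0.15 for all features. For T/NK cells over macrophages 3 of 7 were called, Irf1 and Irf3 higher and Irf5 lower by 1.81 on the log2 scale, beside 31.7% of 9642 features, with medians of -0.04 and 0.15, and the call of Irf1 was lost with doubled marker limits (0.98) and with cells that met both lymphocyte limits kept (0.85). With 7 genes, the first share is at the background and the second near it. For B cells over T/NK cells 4 of 7 were called, Irf4 (3.33), Irf5 (1.58) and Irf8 (1.34) higher and Irf1 (-1.57) lower, beside 12.7% of 9706 features, with medians of 0.19 and -0.06. Of these 4, the calls of Irf1, Irf5 and Irf8 were each lost under at least 1 alternative. All 7 genes passed the limit of 5 CPM on the mean of the classes in every comparison.

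**Figure D3:**
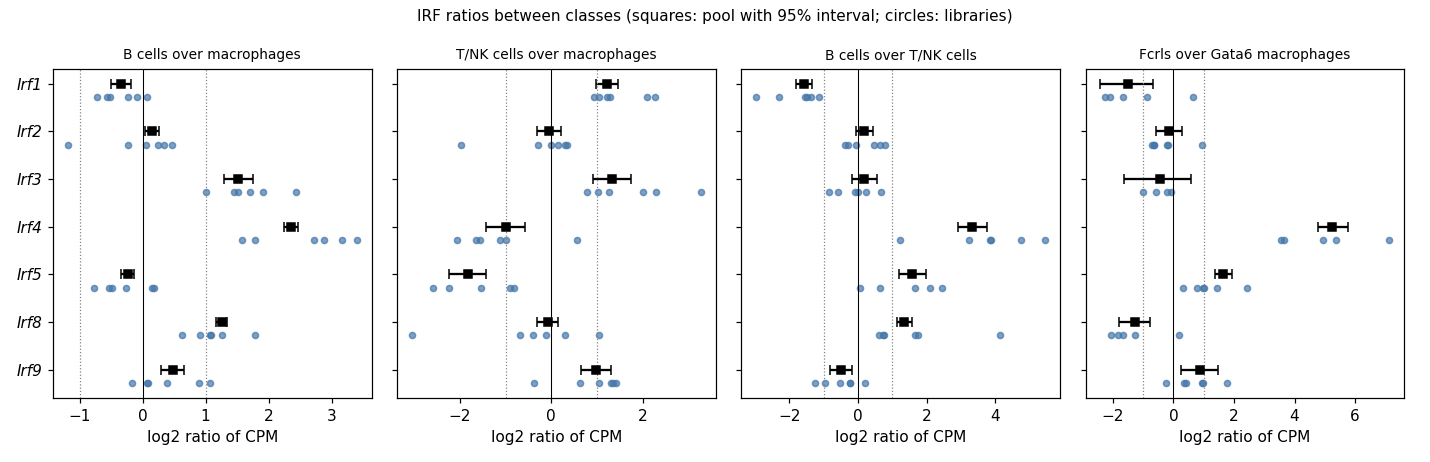
Log2 ratio of CPM for the 7 genes in 4 comparisons of classes. Squares are the pool with exact conditional 95% intervals, circles the libraries in which both classes had UMIs, and dotted lines mark 2-fold. For Fcrls over Gata6 macrophages, Irf4 lies at 5.24 and Irf5 at 1.65, and Irf1 and Irf8 lie at -1.49 and -1.27 with 1 library each on the other side.

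Between the macrophage classes the direction differed from gene to gene. Irf4 was 37.9-fold higher in Fcrls than in Gata6 macrophages (27.1–54.1), a log2 ratio of 5.24 (4.76–5.76), and Irf5 3.14-fold higher (2.58–3.80), a log2 ratio of 1.65 (1.37–1.93), in 6 of 6 libraries for both. Gata6 macrophages of library 5 had no Irf4 UMI, and the ratio in the other 5 libraries ran from 3.56 to 7.13. Without library 1 the Irf4 ratio was 5.84. Those were the 2 of 7 genes called, the call of Irf5 being lost with a stricter minimum of genes per cell and with doubled marker limits, beside 12% of 8694 features, and the medians were -0.14 for the 7 genes and 0.01 for all features.

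In the opposite direction, Irf8 had a log2 ratio of -1.27 (-1.82 to -0.76) and Irf1 of -1.49 (-2.43 to -0.68). For Irf8, library 4 alone lay the other way, with 132 CPM in Fcrls and 115 CPM in Gata6 macrophages, and for Irf1, library 6 did, with 37.0 and 23.6 CPM. Without library 6 the Irf1 ratio was -2.24 and without library 1 it was -1.01. Neither was called, and the Fcrls values rest on 34 and 13 UMIs. Irf9 was at 0.88 (0.25–1.47), higher in 5 of 6 libraries, whereas Irf2 (-0.58 to 0.28) and Irf3 (-1.63 to 0.58) had intervals across 0.

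Fcrls macrophages held 5.55% of the macrophage UMIs but 39.2% of the Irf4 UMIs (35.7–42.8%) and 12.0% of the Irf5 UMIs (10.4–13.8%), against 2.33% of the Irf8 UMIs (1.62–3.24%) and 2.09% of the Irf1 UMIs (1.12–3.55%). Gata6 macrophages, with 28.7% of the UMIs, held 5.35% of the Irf4 UMIs (3.85–7.21%) and 29.0% of the Irf8 UMIs (26.7–31.4%). Macrophages in which neither marker was seen, a class set by detection that can hold cells of both kinds, held 55.2% of the Irf4 UMIs (51.6–58.8%) and 65.7% of all macrophage UMIs. Of the small peritoneal macrophage markers, which include Fcrls itself, 6 of 7 were in at least 10% of Fcrls macrophages (16002 to 26585 summed CPM by library) and 2 of 7 in that share of Gata6 macrophages (213 to 3320 CPM, Fcrls at 0 by the rule). B cells summed to 11447 CPM on this list with 1 of 7 markers in that share, so a high sum alone does not mark small macrophages. The plasma cell list, whose cells use Irf4, summed to 526 to 958 CPM by library in Fcrls and 79.4 to 175 CPM in Gata6 macrophages. Of its 5 markers, 2 and 1 were in at least 10% of cells, and Jchain and Tnfrsf17 were at 0 in both. Prdm1, also on this list, went the other way, at 36.6 CPM in Fcrls and 66.0 CPM in Gata6 macrophages. Summed B cell markers were at 0 to 33.3 CPM and 0 to 42.5 CPM, sums that the macrophage rule itself limits through Cd79a and Cd79b. The part of plasma cell genes in the Irf4 values was not tested.

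Cells with a dendritic cell marker UMI numbered 193 in the macrophage class. They had 99.0 CPM of Irf4 and the other macrophages 50.3 CPM, a log2 ratio of 0.98 (0.67–1.27), and 178 against 97.8 CPM of Irf5, a ratio of 0.86 (0.64–1.08), both higher in 6 of 6 libraries. Irf8 was at 75.8 against 109 CPM, lower in 4 of 6. The 7 dendritic cell markers summed to 15.3 to 37.5 CPM by library in Fcrls and 3.58 to 29.6 CPM in Gata6 macrophages, with Flt3, Xcr1 and Siglech at 0 in both, and without the cells that carry a dendritic cell marker UMI the Fcrls over Gata6 ratio was 5.50 for Irf4, 1.48 for Irf5 and -1.28 for Irf8.

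The T/NK values of 3 genes rested on few cells. Of the 182 Irf8 UMIs, 40 came from 15 NK cells (Nkg7 without Cd3d or Cd3e), 71 from 40 cells with 1 to 3 B cell marker UMIs and 46 from 29 cells with a Csf1r or Adgre1 UMI, sets that share cells. The 438 T/NK cells outside those sets had 41 Irf8 UMIs, a level of 32.1 CPM (23.0–43.5), 18 Irf5 UMIs, 14.1 CPM (8.34–22.3), and 17 Irf4 UMIs, 13.3 CPM (7.75–21.3). Summed macrophage markers ran from 44.4 to 5585 CPM by library in the T/NK class, and summed B cell markers from 25.02 to 599 CPM, with no marker of either list at 0. How much of the T/NK value is RNA of other cells was not tested.

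With every cell that had a B cell or macrophage marker UMI left out, 423 T/NK cells remained. Irf5 was then at 3.30 CPM (0.90–8.44), Irf8 at 27.2 CPM (18.7–38.2) and Irf4 at 12.4 CPM (6.92–20.4), though Irf4 in library 6 was at 333 CPM. Single libraries set these values, since Irf8 was at 9.31 CPM (4.26–17.7) without library 1 and Irf4 at 5.06 CPM (1.86–11.01) and Irf5 at 1.69 CPM (0.20–6.09) without library 6. Irf1 stood at 119 CPM, Irf2 at 81.6, Irf3 at 39.6 and Irf9 at 58.5 CPM, each within the interval of the whole class. The log2 ratio of T/NK cells over macrophages moved to -4.98 for Irf5, -1.96 for Irf8 and -2.13 for Irf4, from -1.81, -0.08 and -0.98. Fcer1g, one of the macrophage genes, is also made by NK cells, and 14 of the 15 NK cells were left out by this step.

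**Figure D4:**
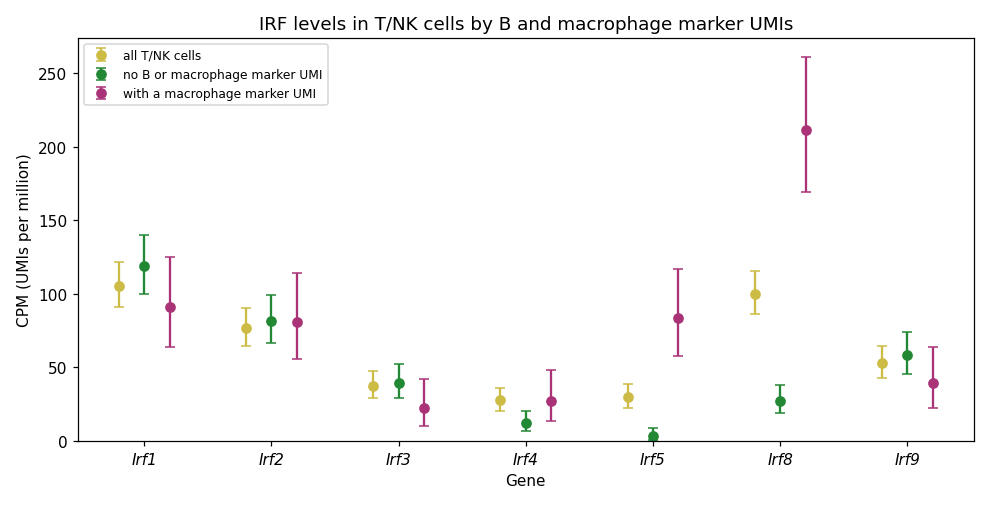
Level (CPM) of the 7 genes in all 514 T/NK cells, in the 423 without a B cell or macrophage marker UMI and in the 57 with a macrophage marker UMI, pooled over libraries with exact Poisson 95% intervals. Irf8 and Irf5 stand apart between these sets (27.2 and 211 CPM, 3.30 and 83.6 CPM), while the intervals of Irf1, Irf2, Irf3 and Irf9 overlap.

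Within the lymphocytes, the 15 NK cells had 573 CPM of Irf8 (409–780) and 13 of them carried a UMI, against 88.2 CPM (73.3–105) in 405 T cells and 30.3 CPM (20.4–43.2) in the 349 T cells without B cell or macrophage marker UMIs. The log2 ratio over all 405 was 2.70 (2.15–3.23), and NK cells were higher in 4 of the 4 libraries that had any. No Irf4 UMI was found in NK cells, where the interval of a count of 0 reaches 52.8 CPM, against 35.1 CPM in T cells, so no difference was detectable at this depth.

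B cells were divided by Egr3 and Egr4, immediate early genes of antigen receptor signaling. The 308 B cells with at least 2 UMIs of these (median 8230.5 UMIs) had 621 CPM of Irf4 (592–651), with libraries from 417 through 620 to 1020 CPM, and the 2417 with none (median 5015 UMIs) had 185 CPM (178–193), with libraries from 112 through 189 to 565 CPM. The log2 ratio was 1.75 (1.66–1.83), and Irf4 was higher in 6 of 6 libraries. At equal depth 52.9% (47.2–58.6%) and 15.5% (14.1–17.0%) of the cells had an Irf4 UMI.

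Irf2 went the other way, with 42.8 CPM (35.4–51.2) in the Egr cells and 103 CPM (97.9–109) in the rest, a log2 ratio of -1.27 (-1.55 to -0.999), lower in 6 of 6 libraries. Irf9 (-0.76, -1.15 to -0.40) and Irf1 (-0.57, -0.94 to -0.22) were also lower in 6 of 6 libraries. Irf8 was at 253 and 254 CPM, a log2 ratio of -0.01 (-0.12 to 0.11), and the intervals of Irf3 (-0.13 to 0.44) and Irf5 (-0.38 to 0.05) also held 0.

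**Figure D5:**
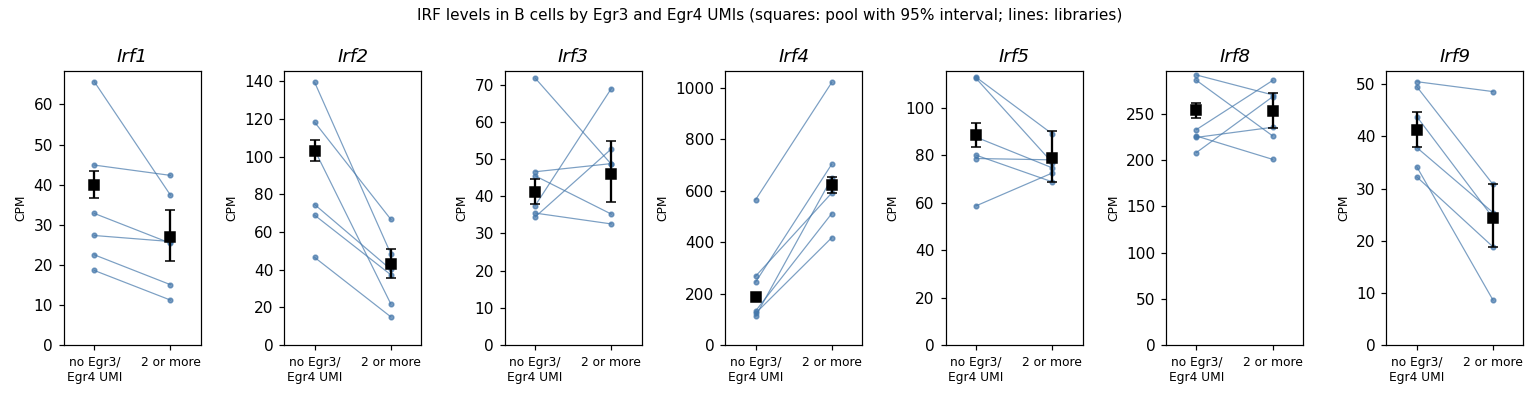
Level (CPM) of the 7 genes in B cells with no Egr3 or Egr4 UMI and in B cells with 2 or more. Squares are the pool with exact Poisson 95% intervals and each line joins the 2 values of a library. Irf4 is higher in the Egr cells in 6 of 6 libraries (621 against 185 CPM), Irf1, Irf2 and Irf9 are lower in 6 of 6, and Irf8 stays at 253 and 254 CPM.

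B cells were also divided by Bhlhe41, a factor of the B-1 lineage, and Fcer2a, a follicular B cell receptor. Most of them, 2375 cells, had no UMI of either and 18 had both. The 419 with Bhlhe41 alone (median 6934 UMIs) had 231 CPM of Irf4 (214–248). The 136 with Fcer2a alone (median 4693.5 UMIs) had 387 CPM (345–434). The log2 ratio was -0.75 (-0.94 to -0.55), with the Bhlhe41 cells lower in 4 of 6 libraries. Irf5 was higher in the Bhlhe41 cells in 6 of 6 libraries, at 100.5 against 79.3 CPM, but its interval crossed 0 (-0.05 to 0.76). Log2 ratios of the other 5 genes ran from -0.26 for Irf8 to 0.51 for Irf2.

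Cell by cell, and at equal depth, B cells with an Irf4 UMI less often had one of Irf2. Of 632 B cells with an Irf4 UMI, 4.91% had one of Irf2 (3.36–6.89%), against 15.9% of 2278 without (14.4–17.5%), lower in 6 of 6 libraries. Irf1 was in 3.01% (1.82–4.66%) and 6.28% (5.32–7.35%) of them and Irf9 in 3.48% (2.19–5.22%) and 6.67% (5.68–7.78%), both lower in 5 of 6. Irf3 was more frequent with Irf4, at 8.23% (6.21–10.6%) and 5.93% (4.99–6.98%), in 6 of 6 libraries, and Irf8 was at 26.3% (22.9–29.9%) and 29.2% (27.3–31.1%). In macrophages, 1.3% of 154 cells with an Irf4 UMI had one of Irf1 (0.16–4.61%), which is 2 cells, against 6.07% of 2536 without (5.17–7.07%). Irf1 was lower in 6 of 6 libraries, but a library holding none of these 2 cells counts as lower by default. Irf8 was at 7.14% (3.62–12.4%) with and 14.6% (13.2–16.0%) without an Irf4 UMI. Within Fcrls macrophages alone, Irf8 was at 4.35% (0.53–14.8%) with and 4.04% (1.11–10.0%) without an Irf4 UMI, so the macrophage values also mix subclasses. Since libraries differ in their Irf4 and Irf1 levels, the pooled shares mix libraries. The counts of libraries are a guide within each only where enough cells carry both genes.

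For each gene, features whose log2(CPM + 1) followed it most closely over 30 points (5 classes in 6 libraries) were taken from among 5494 features, and those named are of the closest 3. The points share libraries and differ in depth, and the correlations are a description. Irf4 went with Nr4a3 (Pearson r = 0.88), Map3k1 (0.88) and S100a6 (0.84), and Nr4a3, an orphan nuclear receptor of the immediate early kind, had 213 CPM in B cells, 403 CPM in Fcrls and 20.2 CPM in Gata6 macrophages. Irf5 went with Lat2 (0.92) and Egr2 (0.91). Irf8 went with Tbl1xr1 (0.90), Eps15 (0.88) and Gm10031 (0.87), Irf1 with Bnip3l (0.92) and Hp1bp3 (0.91), and Irf3 with Exosc1 (0.92), Sirt7 (0.92) and Fasn (0.91). The closest matches were weaker for Irf2, with Syf2 (0.79), Faf2 (0.77) and Ube4a (0.77), and for Irf9, with Leng8 (0.79), Ccnt2 (0.76) and Ddx5 (0.71). Among the 7 genes themselves r ran from -0.51 for Irf1 and Irf4 to 0.64 for Irf3 and Irf8.

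Partners and regulators of IRFs were read from a list of 14 genes, 13 of them above the limit on CPM in the comparisons of the 3 main classes. For B cells over macrophages 7 were called higher and 4 lower, beside 40.8% of all features called, with a median log2 ratio of 1.21. Spib, the Ets partner of Irf4 and Irf8 in B cells, was at 48.8 against 0.44 CPM and Ikzf3, a B cell Ikaros factor, at 192 against 1.09 CPM, while Spi1, which encodes PU.1, was at 95.5 against 402 CPM. Batf, the AP-1 partner of Irf4, was at 61.5 against 10.7 CPM. For T/NK cells over macrophages 4 were higher and 3 lower (31.7% of all features were called), and for B cells over T/NK cells 2 were higher and 1 lower (12.7%). In Fcrls over Gata6 macrophages none of 12 was called in either direction, and Batf3 stood at 34.0 against 0.51 CPM from 2 UMIs in Gata6 macrophages, a log2 ratio of 6.07 (4.07–9.19).

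Of 19 sensors and kinases in the table that act upstream of Irf3 and Irf5, 18 were tested for B cells over macrophages, with 2 called higher and 5 lower and a median of -0.11, a share near the 40.8% of all features. Tlr9, the endosomal DNA receptor, was at 21.9 against 0.22 CPM, and Tlr4 at 3.14 against 54.4 CPM and Ikbke at 6.65 against 53.1 CPM were lower in B cells. Unc93b1, the chaperone of the endosomal receptors, was at 143 CPM in B cells, 137 CPM in macrophages and 18.7 CPM in T/NK cells. For T/NK cells over macrophages 1 of 16 was called higher and 3 lower (31.7% of all features were called), and for B cells over T/NK cells 5 of 16 were higher and 1 lower (12.7%). In Fcrls over Gata6 macrophages 3 of 16 were lower, Tlr7 (1.31 against 17.7 CPM), Ikbke (14.4 against 61.7 CPM) and Ticam2 (2.61 against 10.6 CPM), beside 12% of all features, and none was called higher. The Fcrls values of Tlr7 and Ticam2 lie under the 3.92 CPM of 3 UMIs, and the interval of Ticam2 reached -0.08.

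Of 10 interferon receptor, JAK and STAT genes, 3 were lower in B cells than in macrophages, Ifnar2 (37.5 against 146 CPM), Ifnar1 (51.5 against 152 CPM) and Ifngr2 (38.4 against 105 CPM), beside 40.8% of all features called in either direction, and none was called higher. T/NK cells had 694 CPM of Ifngr1, the ligand-binding chain of the interferon gamma receptor, against 59.2 CPM in macrophages and 44.0 CPM in B cells, whereas Ifngr2, the other chain, was called lower in T/NK cells than in macrophages, at 42.3 against 105 CPM. In all, 3 of the 10 were called higher and 2 lower for T/NK cells over macrophages (31.7% of all features), 2 lower and none higher for B cells over T/NK cells (12.7%), and none between Fcrls and Gata6 macrophages. Irf7, a family member outside the set, was at 9.25 CPM in B cells, 23.6 CPM in T/NK cells and 13.1 CPM in macrophages.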

How the data were processed

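Per the labels and the study's methods, the authors sequenced 10x 5′ libraries, used Cell Ranger 2.2 and Seurat 3.0 as in the submitters' processing notes (the methods give other versions of both), aligned reads to mm10 and to the human genome, and deposited raw UMI counts of 7760 barcodes, not normalized. The gene annotation is not given in the sources used here, and neither is its treatment of overlapping genes.

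The filter removed 95 barcodes, namely those under 500 genes, those whose log gene number was below 0.8 of the log UMI number and those above 10% mitochondrial UMIs. Doublets were called per library with Scrublet (scanpy 1.11.5, expected rate 0.01), which marked 47 (0.606%), and were kept. Free RNA was not removed. UMIs were summed per class and library and divided by the class total. Intervals are exact 95% (Poisson for CPM, conditional for ratios, Clopper-Pearson for shares; scipy 1.17.1) and cover counting error only. The floor for a gene with no UMI is 3 counts. A feature needed a mean of 5 CPM. Cells were thinned once to 1500 UMIs. With 1 library per condition and library numbers not matched to conditions, nothing was tested across samples. Mertk UMIs were found in macrophages of every library (17.4 to 33.9 CPM). Where they lie relative to the part that the MerKD allele lacks was not examined, so they check no label.

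The 7 genes, the partner lists and the comparisons were chosen with earlier results of these data known. Named genes are the 7, the 3 features most like each, and up to 4 of each partner list with the largest ratios. Some genes that this rule names are not reported here. Promoter motifs and the T/NK sets without other cells' markers were chosen after the values were seen, and so were Batf and, for B cells, Spi1. Gene positions are from GENCODE vM21 on GRCm38. Promoter distances are counted from the RefSeq start, which differs from the GENCODE start for Irf2 and Irf4. Ratios and calls were tested on simulated counts. These were Poisson counts with the same level of a feature in every library of a class, so they do not cover differences between libraries or cells.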

Additional observations from a re-analysis of the deposited data

Results flagged for a closer look

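The 1277 cells in no class belong to no comparison above, and all 7 genes were above the floor of 3 counts in them (0.70 CPM). Irf4 stood at 402 CPM (383–422) and Irf8 at 255 CPM (241–271). Irf5 was at 109 CPM, Irf2 at 47.5 CPM, Irf3 at 43.3 CPM, Irf9 at 28.4 CPM and Irf1 at 22.1 CPM. Of these cells 697 had 1 to 3 B cell marker UMIs, and all 8 B cell markers listed were found in at least 10% of them. Their median depth was 2735 UMIs, and 514 came from library 6, where Irf4 was at 643 CPM.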

How the results depend on the processing

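The 13 alternatives changed 1 choice each, 3 of them chosen after seeing the data (T/NK cells or macrophages without other cells' markers, and 2-fold in the pool alone), and each of the 6 libraries was also left out in turn, for the marker-free T/NK cells as a choice made after seeing the data. The calls of Irf3, Irf4 and Irf8 in B cells over macrophages held in all 19, with leave-one-out log2 ratios of 1.41 to 1.71, 2.10 to 2.82 and 1.06 to 1.34, and so did Irf4 in Fcrls over Gata6 macrophages (4.90 to 5.84 over all 19). Irf5 there was called in 17 of 19. The number of genes called in Fcrls over Gata6 macrophages was 1 with a stricter minimum of genes per cell, 1 with doubled marker limits (Irf5 lost in both) and 4 with 2-fold in the pool alone (Irf1 and Irf8 added), and 3 without library 4 (Irf8 added) or library 6 (Irf1 added), so leave-one-out gave 2 to 3. For B cells over T/NK cells it was 2 with doubled limits (Irf4 and Irf5) and 2 with cells meeting both lymphocyte limits kept in both (Irf4 and Irf1), and 3, without Irf5, with the stricter gene minimum or the totals below. Irf1 in T/NK cells over macrophages lost its call under doubled limits and with those cells kept, and Irf9 was added there with doubled limits, with the totals below (4 called) and without library 5 (4 called). With those cells kept, Irf4 in T/NK cells over macrophages changed from -0.98 to 1.10 and was called higher. Features called for B cells over T/NK cells were 645 and 665 under those 2 settings and 2278 with the pool alone, against 1234, and 2349 against 1042 for Fcrls over Gata6 macrophages with the pool alone. Without immunoglobulin, mitochondrial and ribosomal protein genes in the totals, the median of all features moved from 0.15 to 0.62 for B cells and to 0.61 for T/NK cells over macrophages, and the share of calls that were higher from 54.1% to 72.6% and from 45.2% to 61.2%. Irf1 and Irf5 in B cells over macrophages then changed sign (0.10 and 0.20), neither of them called. No called ratio changed sign under any alternative run. Shares at equal depth moved with the depth chosen, and doublets left out moved none of the 28 beyond its interval. As only 47 of 7760 barcodes were called doublets, this step could hardly move a share and says little about doublets not called. No paired analysis was possible because no result comes from a test; ratios within each library are given instead. Of the 5 classes, depth limits Fcrls macrophages most, where 3 UMIs are 3.92 CPM, and 3 UMIs are 43.0 CPM in the 15 NK cells.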

Other observations

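The 153 cells that met both lymphocyte limits had 217 CPM of Irf4 (195–241), 249 CPM of Irf8 (225–274), 76.7 CPM of Irf5 (63.8–91.5) and 53.8 CPM of Irf1 (43.1–66.4). Their median depth of 10045 UMIs was above the medians of B cells and of T/NK cells.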
